A study of Mus musculus with 6 samples.

Results

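A group of 10 trypsin-like serine protease genes of the Prss family that are active in the mouse testis were described in RNA of whole testes from KIFC1 knockout and wild-type mice. The 10 genes are Prss21, Prss37, Prss39, Prss42, Prss43, Prss44, Prss46, Prss50, Prss55 and Prss56, out of 51826 genes counted. They were found by matching Ensembl identifiers to symbols in GENCODE release M21, and each matched 1 row in every sample. The first 9 were named for family and tissue. Prss56 was chosen by its lower level in knockout in these same samples, so its values are given as a description with no test, and it is left out of counts of tested members. There were 3 KIFC1 knockout and 3 wild-type testis samples, all from mice of the C57BL/6J strain aged 8 weeks. How the knockout allele was made, and whether it acts in germ cells alone, is not given in the sources used here, nor whether each sample is a different animal. The p-values therefore reflect how much these samples vary, and part of that may be technical.

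Trypsin-like proteases cut proteins after basic residues, using a histidine, an aspartate and a serine in the active site, and are usually made as inactive precursors. Male germ cells express many of them. In the mouse several are placed on the sperm surface or in the acrosome, and their loss can impair the maturation of the sperm protein ADAM3, on which passage of sperm into the oviduct depends. KIFC1 is a kinesin motor that moves towards microtubule minus ends.

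Library totals were 32129093 to 38169198 counts in knockout and 29274603 to 38703606 in wild type, so that 3 counts correspond to at most 0.0986 counts per 1000000 counts (CPM) in any library, a floor that covers counting error only. Every member lay far above it, with 229 to 14558 counts per sample. Kifc1 itself stood at 0.326, 0.737 and 0.282 CPM in knockout 1, 2 and 3 and at 15.5, 16.1 and 14.7 CPM in wild type 1, 2 and 3. The knockout samples were not alike: mitochondrial genes took 5.74%, 1.54% and 4.29% of counts in knockout 1, 2 and 3, against 0.661% to 0.935% in wild type, and the libraries differed in their trends with base composition. Epididymal markers were near 0, with 6 of 7 at 0 counts in every sample and a summed level of 0 CPM in each knockout and at most 0.147 CPM in wild type. Markers of spermatocytes summed to 2956 to 3522 CPM in knockout and 3048 to 3310 CPM in wild type, those of round spermatids to 1932 to 2572 CPM in knockout and 1806 to 2304 CPM in wild type, and those of elongating spermatids to 24026 to 36755 CPM in knockout and 29492 to 31339 CPM in wild type. By edgeR 3 spermatocyte markers rose and 1 fell of 15, 2 rose and 1 fell of 13 for round spermatids, and 2 rose and 3 fell of 15 for elongating spermatids, where 3.11% of all genes tested were called higher and 5.12% lower. Sertoli cell markers, of which 1 of 13 rose by edgeR, 6 were higher and 1 lower at an unadjusted p under 0.05 and 3 were called higher by DESeq2, summed to 1470.3 to 2211 CPM in knockout and 1157 to 1589 CPM in wild type. Leydig cell markers, of which 0 of 10 were called by edgeR, 4 were higher at an unadjusted p under 0.05 and 3 were called higher by DESeq2, summed to 1370.3 to 1963 CPM in knockout and 744 to 1594 CPM in wild type. Of 6 blood markers 5 were tested and Alas2 alone was called, as lower, with 3 lower at an unadjusted p under 0.05, and they summed to 41.1 to 78.2 CPM in knockout and 62.6 to 132 CPM in wild type. Of all genes tested, 12.1% were higher and 15.0% lower at an unadjusted p under 0.05. DESeq2 called 8.49% higher and 9.7% lower of the 18172 genes it gave an adjusted p. The part of these marker and library differences in the results that follow was not tested.

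Of the 9 tested members, 1 fell and 0 rose in knockout testes (edgeR quasi-likelihood test, Benjamini-Hochberg adjusted p under 0.05). Over all 21518 genes tested, 5.12% were called lower, 3.11% called higher and 8.23% called in either direction, so 1 of 9 is near the background and is not a result about the family. At an unadjusted p under 0.05, 4 members were lower and 1 higher, where 15.0% of all genes were lower, 12.1% higher and 27.1% either. DESeq2 called 3 lower and 0 higher. Of the 18172 genes it gave an adjusted p, it called 9.7% lower, 8.49% higher and 18.2% in either direction. The CPM ranges of the groups did not overlap for 6 members that were lower in knockout and for 1 that was higher, against 18.1% and 14.6% of all genes tested. The median log2 fold change, knockout over wild type, was -0.33 over the 9 members and -0.01 over all genes. After each library's trend with exon GC content and exon length was taken out (the trend-corrected fit), these medians were -0.10 and 0.01, and 0 of the 9 members were called, against 0.0837% of all genes. In whole tissue, fewer cells of a type and less RNA per cell cannot be told apart.

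**Figure D1:**
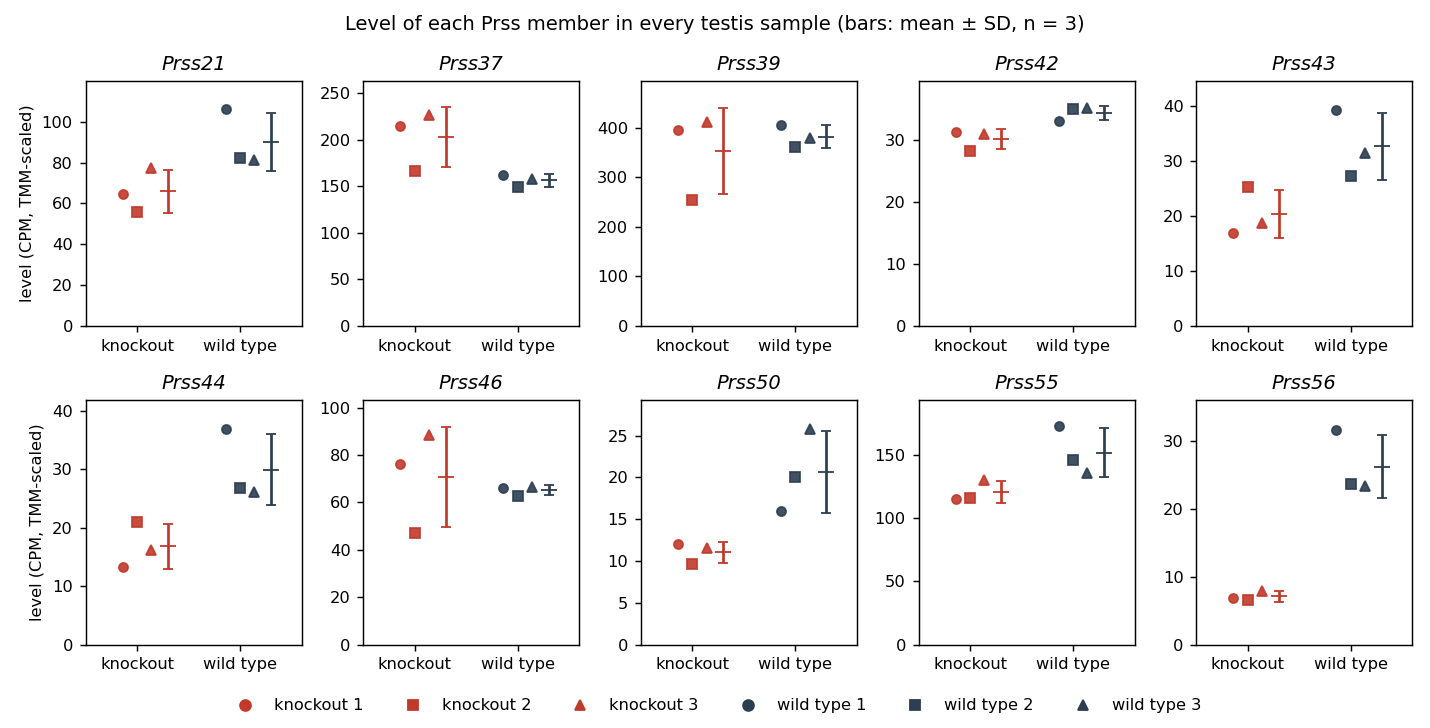
TMM-scaled CPM of the 10 members in each sample, with knockout samples at the left and wild-type samples at the right of each panel; the bar beside each group is the mean ± SD of 3 samples. Prss56 sits between 6.49 and 7.95 CPM in knockout and between 23.4 and 31.6 CPM in wild type, while the groups overlap for Prss39 and Prss46.

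Levels between genes were compared per kilobase of exon. Prss39 was the most abundant member, at 265 ± 65.0 CPM per kb in knockout and 287 ± 17.1 CPM per kb in wild type (SD, n = 3 each). Prss37 followed with 181 ± 28.3 CPM per kb in knockout and 139 ± 6.26 CPM per kb in wild type, and Prss55 with 85.6 ± 6.20 CPM per kb in knockout and 108 ± 13.8 CPM per kb in wild type. Prss46, Prss21 and Prss42 were intermediate, from 52.5 down to 19.1 CPM per kb in knockout and from 48.4 down to 21.7 CPM per kb in wild type. Prss43, Prss50, Prss44 and Prss56 were the least abundant, at 3.25 to 8.76 CPM per kb in knockout and 8.49 to 14.2 CPM per kb in wild type. In wild type Prss43 at 14.1 ± 2.63, Prss50 at 14.2 ± 3.38 and Prss56 at 12.0 ± 2.13 CPM per kb did not differ beyond their spread. The same held in knockout for Prss43 at 8.76 ± 1.89 and Prss50 at 7.59 ± 0.869 CPM per kb. In knockout Prss56 was the lowest of the 10, and in wild type Prss44 was.

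Prss39, known as TESP1 in the mouse, is a protease of the sperm acrosome. It lies on chromosome 1, at 34498410 to 34503063 on the plus strand (GRCm38, the assembly that mm10 names). Its level was 395, 254 and 412 CPM in knockout 1, 2 and 3 and 406, 361 and 380.3 CPM in wild type 1, 2 and 3. Knockout 2 was below every other sample, and knockout 1 and 3 lay within or just above the wild-type range. Knockout over wild type, the log2 value was -0.11 (SE 0.19, edgeR adjusted p = 0.75), which did not pass the test, and it was 0.078 without knockout 2 and 0.20 in the trend-corrected fit. Prss40, called TESP2, is its neighbour on the same chromosome and shares 1 of the 1329 distinct 50-base stretches of Prss39 transcripts. It was at 46.9 ± 8.11 CPM in knockout and 69.3 ± 7.96 CPM in wild type (log2 fold change -0.57, SE 0.17, edgeR adjusted p = 0.0778). The ratio of Prss39 to Prss40 counts, which no scaling changes, was 10.03, 4.58 and 9.01 in knockout and 5.18, 5.44 and 6.01 in wild type, so that knockout 2 alone among the knockouts was below the wild-type ratios.

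Prss21, or testisin, and Prss55 encode proteases held at the cell surface by a lipid anchor, and the mouse needs Prss55 for sperm to enter the oviduct. Prss21 (chromosome 17, 23868056 to 23873114, plus strand) stood at 64.5, 55.9 and 77.2 CPM in knockout 1, 2 and 3 and at 106, 82.3 and 81.3 CPM in wild type 1, 2 and 3. Every knockout value was below every wild-type value, by a narrow margin between knockout 3 and wild type 3. The log2 fold change was -0.45 (SE 0.18, edgeR adjusted p = 0.145), or -0.20 (SE 0.15) in the trend-corrected fit. Prss55 (chromosome 14, 64075438 to 64090162, minus strand) stood at 115, 116 and 130.2 CPM in knockout and at 173, 146 and 135 CPM in wild type. These ranges did not overlap either, yet the difference did not pass the test (log2 fold change -0.33, SE 0.15, edgeR adjusted p = 0.185) and was -0.10 (SE 0.12) in the trend-corrected fit. Across the 6 samples Prss21 and Prss55 had nearly the same course, with a root mean square difference of 0.11 log2 units between their centred log2 CPM. The span of Prss55 overlaps that of Prss51 on the opposite strand by 3929 bases, with 0 exon bases in common. Prss51, at 31.5 ± 5.47 CPM in knockout and 27.5 ± 3.46 CPM in wild type, was not called (log2 fold change 0.20, SE 0.19, edgeR adjusted p = 0.539). The count ratio of Prss55 to Prss51 was 3.32, 4.59 and 3.74 in knockout and 5.75, 6.19 and 4.69 in wild type, with no overlap between the groups. How often ratios of other gene pairs do not overlap was not counted. The fitted trend with exon GC content and length, which a ratio keeps, was -0.23 log2 units for Prss55 and -0.17 for Prss51, knockout minus wild type.

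Prss37 encodes a family member that is thought to have lost protease activity, and male mice without it are infertile with poor ADAM3 processing. It was the only tested member with higher values in every knockout than in every wild-type sample. Its level was 215, 167 and 227 CPM in knockout 1, 2 and 3, against 162, 149 and 158 CPM in wild type 1, 2 and 3. Knockout 2 lay just above the highest wild-type sample. The log2 fold change was 0.38 (SE 0.15, edgeR adjusted p = 0.159), a difference that did not pass the test. Without knockout 2 it was 0.50 (SE 0.11, edgeR adjusted p = 0.0305) and was called, in a fit that called 6.62% of all genes higher, 7.69% lower and 14.3% in either direction. Over all its alternatives the adjusted p ran from 0.0305 to 0.402. Prss37 (chromosome 6, 40514824 to 40519508, minus strand) has the lowest exon GC content of the members, 47.6%, and its trend-corrected log2 fold change was 0.39.

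The members Prss42, Prss44, Prss43, Prss46 and Prss50 lie with Prss45 in a stretch of 66464 bases of chromosome 9, from 110798166 to 110864629, all on the plus strand and 1444 to 10239 bases apart. Their order is Prss42, Prss44, Prss43, Prss45, Prss46 and Prss50. The cluster is a set of paralogs active in spermatogenesis, and Prss42 and Prss43 have been linked to survival and meiotic progress of mouse germ cells. Despite their closeness these genes did not share one course across the samples. Prss44, Prss43 and Prss45, which lie side by side, were all lower in each knockout than in any wild-type sample and were lowest in knockout 1. Prss46, directly downstream of them, had knockout values on both sides of wild type.

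**Figure D2:**
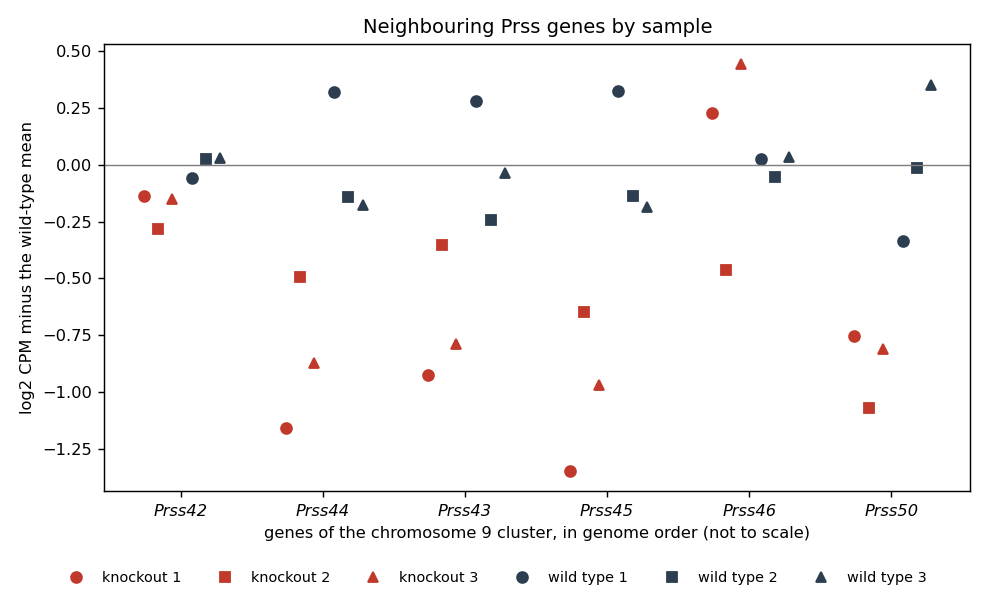
Log2 CPM of the 6 genes of the chromosome 9 cluster minus the wild-type mean of each gene, with knockout samples at the left and wild-type samples at the right of each gene, and 1 marker shape per sample number. Prss44, Prss43 and Prss45 have knockout 2 as the highest knockout sample, whereas Prss42, Prss46 and Prss50 have it as the lowest.

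The sequences below are the 250 bases before the RefSeq start of the cluster genes that the promoter table holds, and of Prss56. They are shown because, of these neighbours, Prss45 and Prss50 fell while Prss42 and Prss46 did not pass the test, and because Prss56 had the lowest fold change of the members. Coordinates are of GRCm38.p6, plus strand: Prss42 at chr9:110797935-110798184, Prss45 at chr9:110834338-110834587, Prss46 at chr9:110844256-110844505, Prss50 at chr9:110857714-110857963 and Prss56 at chr1:87183064-87183313. Capitals mark matches on either strand to the MYB core CAACNG or TAACNG, to the GC box GGGCGG or to TGACG, the half-site of the cyclic AMP response element.
Prss42: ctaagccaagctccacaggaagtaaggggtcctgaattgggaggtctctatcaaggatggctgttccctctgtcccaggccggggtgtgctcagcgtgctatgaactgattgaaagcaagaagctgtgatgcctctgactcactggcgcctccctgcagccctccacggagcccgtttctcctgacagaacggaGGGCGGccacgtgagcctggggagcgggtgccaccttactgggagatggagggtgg
Prss45: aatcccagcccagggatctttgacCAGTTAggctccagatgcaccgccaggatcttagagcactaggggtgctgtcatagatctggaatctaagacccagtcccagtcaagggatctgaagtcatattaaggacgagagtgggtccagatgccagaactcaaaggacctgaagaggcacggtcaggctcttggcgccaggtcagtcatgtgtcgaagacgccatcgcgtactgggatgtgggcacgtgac
Prss46: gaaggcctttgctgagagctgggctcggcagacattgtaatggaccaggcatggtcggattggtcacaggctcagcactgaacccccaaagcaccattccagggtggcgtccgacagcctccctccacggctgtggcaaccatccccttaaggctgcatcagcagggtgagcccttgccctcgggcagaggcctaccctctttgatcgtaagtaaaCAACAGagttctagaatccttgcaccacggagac
Prss50: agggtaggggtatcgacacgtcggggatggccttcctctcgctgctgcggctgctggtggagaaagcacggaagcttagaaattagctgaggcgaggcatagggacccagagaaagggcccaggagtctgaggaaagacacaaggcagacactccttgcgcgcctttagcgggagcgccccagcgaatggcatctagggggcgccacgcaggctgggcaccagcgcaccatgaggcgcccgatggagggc
Prss56: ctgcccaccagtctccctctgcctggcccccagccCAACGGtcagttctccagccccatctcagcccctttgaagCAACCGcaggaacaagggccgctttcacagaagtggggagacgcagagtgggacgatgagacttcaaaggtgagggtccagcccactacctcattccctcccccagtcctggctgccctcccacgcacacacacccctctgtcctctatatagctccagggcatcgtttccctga
The upstream window of Prss50 was 63.6% GC with 17 CG dinucleotides and held no match. Those of Prss42, Prss46 and Prss45 were 60.4%, 58% and 54.8% GC with 9, 8 and 9 CG dinucleotides. The window of Prss56 was 61.2% GC with 7 CG dinucleotides, against a median of 52% GC over 27025 genes. Prss56 had 2 MYB core matches and Prss46 and Prss45 had 1 each, where 43% of all windows hold at least 1. Prss42 had 1 GC box, which 32.9% of windows hold, and none of the 5 held TGACG, which 17.9% do. The full element TGACGTCA, present in 1.62% of windows, was in none of them. These matches are letters in a window and say nothing of binding, and the promoter table held 7 of the 10 members.

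Prss42, upstream of the others, was slightly lower in every knockout. It stood at 31.3, 28.2 and 31.0 CPM in knockout 1, 2 and 3 and at 33.1, 35.0 and 35.1 CPM in wild type 1, 2 and 3. The groups did not overlap, but the log2 fold change was -0.19 (SE 0.14, edgeR adjusted p = 0.429) and -0.05 in the trend-corrected fit.

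Prss44 (110813994 to 110824523) stood at 13.2, 21.0 and 16.1 CPM in knockout 1, 2 and 3 and at 36.9, 26.8 and 26.1 CPM in wild type 1, 2 and 3. All knockout samples were lower, with knockout 2 nearest to wild type. The log2 fold change was -0.84 (SE 0.22), with an edgeR adjusted p of 0.0541 that just missed the threshold. DESeq2 called it at an adjusted p of 0.0119, and edgeR without knockout 2 gave -1.03 (SE 0.21, adjusted p = 0.0222), while the range over all alternatives was 0.0119 to 0.275. Its trend-corrected value was -0.68 (SE 0.23, edgeR adjusted p = 0.139). Prss43 (110826690 to 110831839) had a similar course, at 17.0, 25.4 and 18.7 CPM in knockout and 39.4, 27.3 and 31.5 CPM in wild type. The gap between knockout 2 and wild type 2 was small. Its log2 fold change was -0.68 (SE 0.21, edgeR adjusted p = 0.0799), or -0.87 (SE 0.20, adjusted p = 0.0285) without knockout 2, with adjusted p from 0.0285 to 0.378 over its alternatives. The DESeq2 adjusted p was 0.0372. The courses of Prss43 and Prss44 differed by a root mean square of 0.11 log2 units, the smallest among the 45 pairs of members, with Prss21 and Prss55 next.

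Prss45, a cluster gene outside the 10, had 20.8, 33.8 and 27.1 CPM in knockout and 66.4, 48.2 and 46.6 CPM in wild type. It fell by 0.98 on the log2 scale (SE 0.22, edgeR adjusted p = 0.0337), with -0.62 in the trend-corrected fit, where it was not called. Its course was within 0.08 log2 units of that of Prss44 and 0.18 of that of Prss43, by the same measure. A count ratio does not remove the trends with exon GC content and exon length. The fitted trend, knockout minus wild type, was -0.35 log2 units for Prss45 and -0.14 for Prss42. The ratio of Prss45 to Prss42 counts within a sample was 0.666, 1.20 and 0.873 in knockout and 2.01, 1.38 and 1.33 in wild type. These ratios did not overlap. Those of Prss44 to Prss42 did, at 0.423, 0.744 and 0.520 in knockout and 1.12, 0.765 and 0.744 in wild type, where knockout 2 equals the lowest wild-type ratio at this precision. The ratio of Prss43 to Prss42 overlapped as well, with means of 0.682 ± 0.190 in knockout and 0.956 ± 0.212 in wild type (SD, n = 3 each).

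Prss46 (110844506 to 110856522) had 76.3, 47.2 and 88.4 CPM in knockout 1, 2 and 3 and 66.2, 62.6 and 66.5 CPM in wild type 1, 2 and 3. Knockout 1 and 3 were above all wild-type samples and knockout 2 below them. The difference did not pass the test (log2 fold change 0.12, SE 0.22, edgeR adjusted p = 0.771), and it was -0.057 without knockout 3 and 0.37 (SE 0.21) in the trend-corrected fit.

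Prss50 encodes TSP50, a cancer-testis antigen with a threonine at the place of the catalytic serine, and was the member that fell. It stood at 12.0, 9.61 and 11.5 CPM in knockout 1, 2 and 3 and at 16.0, 20.1 and 25.8 CPM in wild type 1, 2 and 3. Knockout samples were close together and all below wild type, whose samples spread more widely. Its level fell by 0.90 on the log2 scale (SE 0.22, edgeR adjusted p = 0.0389, DESeq2 adjusted p = 0.00365). The call was lost when any single library was left out, with adjusted p from 0.0548 without knockout 2 to 0.129 without wild type 2; it was 0.128 and 0.0978 without knockout 1 and 3, and 0.0634 and 0.109 without wild type 1 and 3. In the trend-corrected fit the log2 fold change was -0.32 (SE 0.21, edgeR adjusted p = 0.402), and over all alternatives the adjusted p ran from 0.00365 to 0.596. The exons of Prss50 are 61.0% GC, and the fitted trend for a gene of its composition and length was -0.59 log2 units, knockout minus wild type. Within samples the count ratio of Prss50 to Prss46, the gene 1444 bases upstream, was 0.157, 0.203 and 0.130 in knockout and 0.242, 0.321 and 0.388 in wild type, without overlap. Prss46 has 52.5% exon GC and a fitted trend of -0.27.

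Prss56 encodes a secreted protease that is known in the mouse from the retina, where glia make it and its loss reduces eye size. It lies on chromosome 1 at 87183313 to 87188405, plus strand. Its level was 6.82, 6.49 and 7.95 CPM in knockout 1, 2 and 3, against 31.6, 23.6 and 23.4 CPM in wild type 1, 2 and 3. The knockout samples differed little among themselves, and the highest of them was far below the lowest wild-type sample. The knockout mean was 7.09 ± 0.763 CPM and the wild-type mean 26.2 ± 4.65 CPM (SD, n = 3 each), so that 27.1% of the wild-type level remained. The log2 fold change of -1.89 was the 67th lowest of 21518, and is the value the gene was chosen by. It ran from -1.96 to -1.31 over the alternatives and was -1.32 in the trend-corrected fit, the fitted trend being -0.57 for its 61.2% exon GC. Glia and nerve markers, of which 5 of 7 were tested and 0 called by edgeR (0 also at an unadjusted p under 0.05, and 0 by DESeq2), summed to 10.2 to 12.4 CPM in knockout and 8.87 to 14.8 CPM in wild type. Cdh19 among them had 0 counts in every sample. Their part in the level of Prss56 was not tested.

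**Figure D3:**
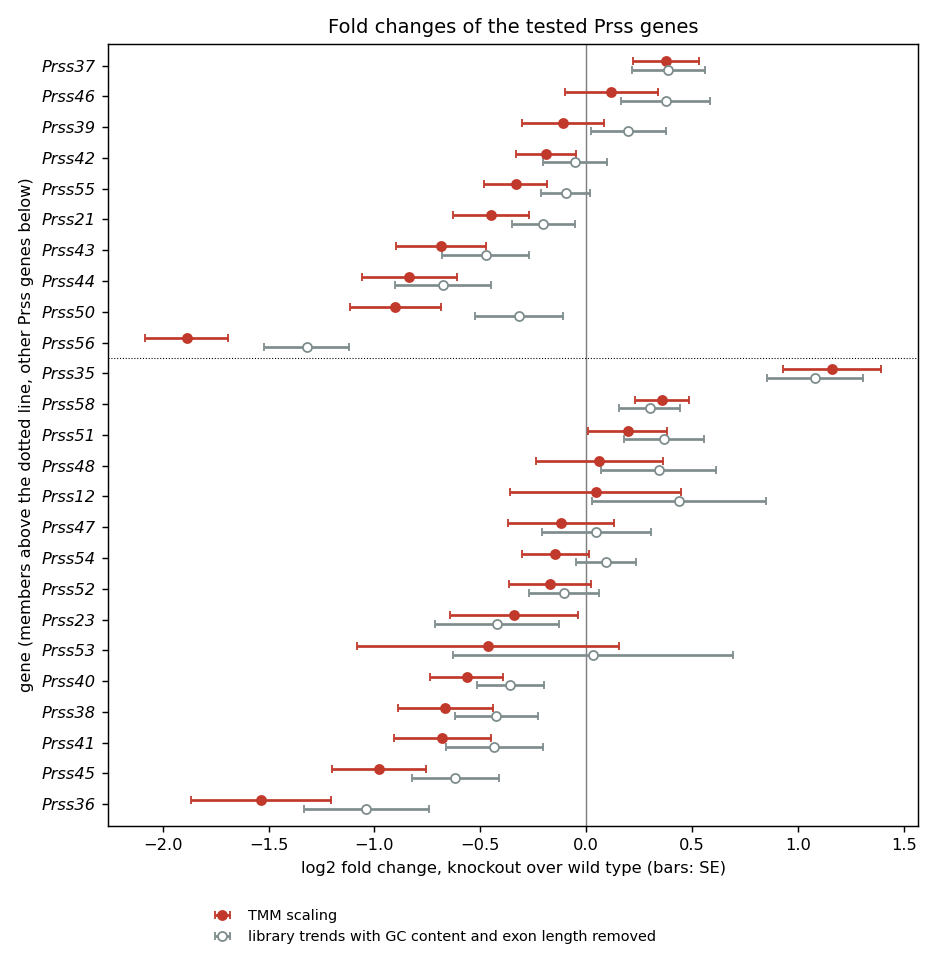
Log2 fold change, knockout over wild type, of the 10 members (above the dotted line) and of the 15 other tested Prss genes (below), with SE. Filled points use TMM scaling and open points are from the trend-corrected fit. Prss56 was chosen by its fall in these samples, so its SE is not to be read as a test. Prss50 moves from -0.90 to -0.32 between the settings, Prss44 from -0.84 to -0.68 and Prss37 hardly at all.

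The trend-corrected fit moved the GC-rich members most. The fitted trend, knockout minus wild type, was -0.59 and -0.57 for Prss50 and Prss56, from -0.32 to -0.14 for Prss39, Prss46, Prss21, Prss55, Prss43, Prss44 and Prss42, and -0.01 for Prss37. Exon GC content ran from 47.6% to 61.2% over the members, with a median of 52.1%, and exon length from 1123 to 3530 bases. All 10 are protein-coding, and apart from the stretch that Prss39 shares with Prss40, no 50-base stretch of a member was found in transcripts of another gene.

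Knockout 2 differed from knockout 1 and 3 in a way that split the members. It was the lowest knockout sample for 7 of the 10 members, the highest for Prss43 and Prss44, and in the middle for Prss55. Among all genes tested it was lowest for 37.2% and highest for 39.5%. Its log2 CPM minus the mean of knockout 1 and 3 was -0.80 for Prss46, -0.67 for Prss39 and -0.40 for Prss37, and 0.52 for Prss44 and 0.50 for Prss43. Of the 15 other tested Prss genes it was highest for 9 and lowest for 4. Knockout 2 is also the knockout sample with the lowest share of mitochondrial counts, and the part of this in the levels was not tested. Leaving it out brought the members called to 3, with Prss37 higher and Prss43 and Prss44 lower, while Prss50 was then not called, in a fit that called 14.3% of all genes against 8.23% with all 6 samples.

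**Figure D4:**
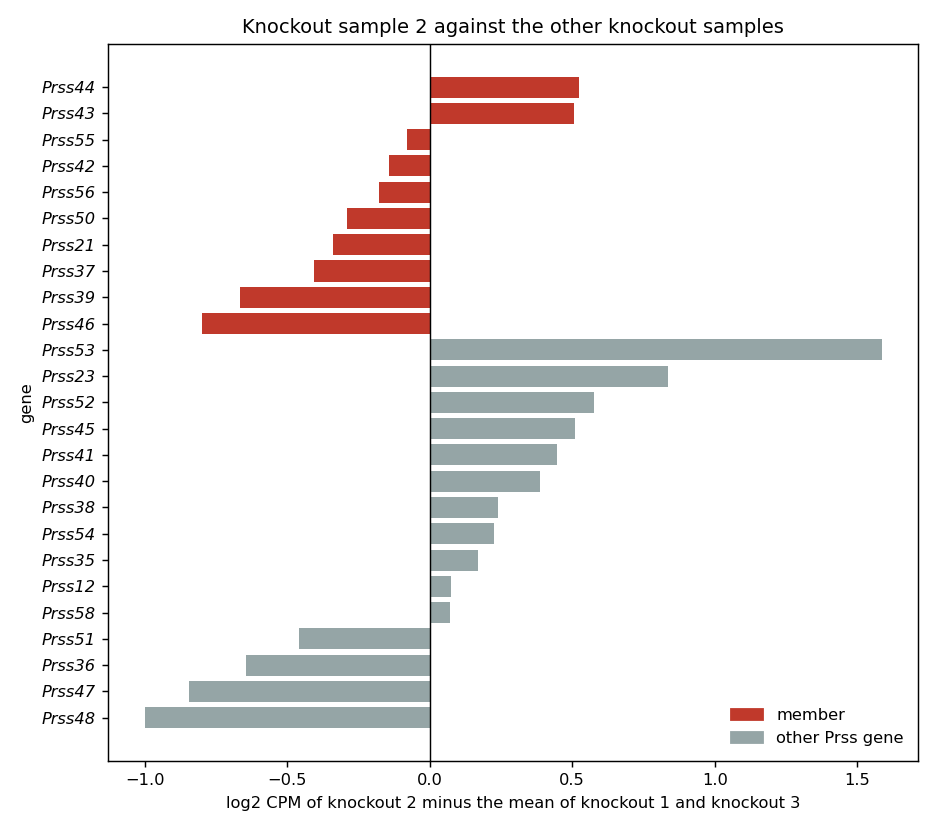
Log2 CPM of knockout sample 2 minus the mean of knockout samples 1 and 3 for the 10 members and the 15 other tested Prss genes. Among members the bars run from -0.80 for Prss46 to 0.52 for Prss44.

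By the rule for named genes, the 2 protein-coding genes with the most similar course over the 6 samples were found for 3 members, among 15155 genes. Genes with Gm or Rik names were left out of this search. For Prss56 they were Tmem239 and Esrra, with root mean square differences of 0.18 and 0.20 log2 units. For Prss50 they were Lama5 (0.08) and Dok3 (0.10), of which Dok3 was low, at 0.492 CPM in knockout and 0.947 CPM in wild type. For Prss37 they were Usp3 and Psme3, both at 0.04. Prss56 was chosen by its fall in these samples, so nothing is read from its larger distances.

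Of 29 other Prss genes, 15 were tested, 11 had 0 counts in every sample, 1 rose and 2 fell (edgeR, adjusted p under 0.05), beside 3.11% and 5.12% of all genes. Prss35, a relative of Prss23 that has been studied in the ovary, rose to 23.1 ± 5.66 CPM in knockout, against 10.3 ± 1.62 CPM in wild type (log2 fold change 1.16, SE 0.23, edgeR adjusted p = 0.0237). It had 27.9, 24.4 and 16.9 CPM in knockout and 8.63, 10.48 and 11.9 CPM in wild type. Its trend-corrected value was 1.079 and was not called. Prss36, which encodes a polyserase with protease domains in tandem, fell to 0.773 ± 0.264 CPM in knockout, against 2.25 ± 0.229 CPM in wild type (-1.54, SE 0.33, edgeR adjusted p = 0.0294). Its level rests on few counts, 39, 19 and 23 in knockout 1, 2 and 3. The trend-corrected value of Prss36 was -1.04 and was not called. The other gene that fell was Prss45.

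Genes related to these proteases by pathway or place were taken from lists. Of 20 genes tied to ADAM3 maturation, 2 rose and 0 fell, with 4 higher and 3 lower at an unadjusted p under 0.05 by edgeR and 3 higher and 0 lower by DESeq2. Over all genes these shares were 8.23% called by edgeR and 27.1% at an unadjusted p under 0.05. DESeq2 called 18.2% of the genes it gave an adjusted p. The list's counts are therefore no result about it. Pdilt, a testis chaperone that ADAM3 needs, rose to 203 ± 16.8 CPM in knockout, against 130.04 ± 6.14 CPM in wild type (log2 fold change 0.65, SE 0.13, edgeR adjusted p = 0.027). Pmis2, which encodes a sperm protein needed for entry into the oviduct, rose to 78.4 ± 23.0 CPM in knockout, against 33.4 ± 2.90 CPM in wild type (1.23, SE 0.23, edgeR adjusted p = 0.0206). Prss37 and Prss55, which act on the same pathway in the mouse, had log2 fold changes of 0.38 and -0.33 and were not called. The median log2 fold change was 0.01 over the list and -0.01 over all genes.

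Of 19 listed genes of the acrosome, 4 rose and 2 fell by edgeR, beside 3.11% and 5.12% of all genes, with a median log2 fold change of 0.08 beside -0.01. The list holds other acrosomal proteins as well as proteases, so its counts say nothing of protease activity. At an unadjusted p under 0.05, 6 were higher and 3 lower, beside 12.1% and 15.0% of all genes. DESeq2 called 5 higher and 3 lower, beside 8.49% and 9.7% of the genes it gave an adjusted p. The sperm hyaluronidase genes Hyal5 (log2 fold change 0.85, SE 0.16) and Spam1 (0.76, SE 0.16) rose with the acrosomal genes Eqtn and Spaca7 (1.09 and 0.95), and Spaca3 and Spaca4 fell (both -1.07). Acrosin itself, Acr, the main trypsin-like protease of the acrosome, had 316, 132 and 404 CPM in knockout 1, 2 and 3 and 182, 179 and 186 CPM in wild type. Knockout 2 was lowest there too, as it was for Prss39. The log2 fold change of Acr was 0.64 (SE 0.33, edgeR adjusted p = 0.257), and without knockout 2 it was 0.98 (SE 0.14, edgeR adjusted p = 0.00884) and was called.

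Of 25 listed serine protease inhibitors, 18 were tested, 0 rose and 2 fell, with 2 higher and 2 lower at an unadjusted p under 0.05 by edgeR, and 0 higher and 2 lower by DESeq2. The background shares were 8.23%, 27.1% and 18.2% in the same order, the last over genes with a DESeq2 adjusted p. These counts are near the background. Pebp1, a phospholipid-binding protein with reported inhibitor activity, fell to 924 ± 180.1 CPM in knockout, against 2136 ± 452 CPM in wild type (log2 fold change -1.21, SE 0.21, edgeR adjusted p = 0.0186). Spint2, a membrane-bound inhibitor of the Kunitz type, fell to 40.9 ± 13.3 CPM in knockout, against 83.2 ± 15.0 CPM in wild type (-1.02, SE 0.25, edgeR adjusted p = 0.0394). In the trend-corrected fit, 0 genes of these 3 lists and 0 of the other Prss genes were called, where 0.0837% of all genes were called. The log2 fold changes there were 0.59 for Pdilt, 1.18 for Pmis2 and 0.95 for Spaca7, close to their values above. They were smaller in size for Spaca4 at -0.53, Spam1 at 0.40, Hyal5 at 0.52 and Pebp1 at -0.80.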

How the data were processed

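Per the submitters' processing notes, reads were trimmed with Trimmomatic, aligned to mm10 with HISAT2 and counted with HTSeq. Versions, annotation release and strand setting are not given in the sources used. The deposited files hold raw counts for 51826 Ensembl genes, which the authors had not normalized. GENCODE M21 gave symbols, places, exon lengths and GC content for 51633 of them, and RefSeq (GRCm38.p6) the promoter sequences.

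The 21518 genes passing filterByExpr were fitted together in edgeR 4.0.16 (R 4.3.3), scaled by TMM, without covariates, with a two-sided quasi-likelihood test. CPM are counts per 1000000 of the TMM-scaled library, and SE comes from the fold change and F statistic. Log2 CPM used a prior count of 2. The trend-corrected fit used offsets from splines with 5 degrees of freedom in exon GC content and log2 exon length, fitted on 12751 genes with mean log2 CPM above 2. Other alternatives were GC offsets alone, other scalings and filters, a Wald test in DESeq2 1.42.0, the replicate number as a block and each sample left out. The test was checked on simulated data. Samples of a group differed by more than sampling noise, with chi-square over degrees of freedom from 15.4 to 135.

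The members, gene lists, tests and alternatives were chosen with earlier results of these data known. Named genes were Kifc1, the members, the chromosome 9 cluster, the called genes of each list (up to 6) or else the 2 with the smallest p, and the 2 genes most like Prss56, Prss50 and Prss37; any further gene was picked with its values in view.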

Additional observations from a re-analysis of the deposited data

How the results depend on the processing

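The direction of Prss21, Prss37, Prss42, Prss43, Prss44, Prss50 and Prss55 was kept under all 15 alternatives. The CPM ranges of the groups did not overlap for any of these members, so leaving out a sample could hardly change their sign. The other alternatives reuse the same samples, so nothing more is read from the kept direction. In the trend-corrected fit Prss42 (-0.05, SE 0.15) and Prss55 (-0.10, SE 0.12) lay within their SE of 0. The direction of Prss56 was kept as well, but the gene was chosen by its fall in these samples, so nothing is read from this. Prss39 changed sign with offsets for GC content (0.13), with offsets for GC content and exon length (0.20), with the replicate block and those offsets (0.17) and without knockout 2; with a sample left out it ran from -0.216 to 0.0784. Prss46 changed sign without knockout 3, and ran from -0.0572 to 0.339 with a sample left out. The cause was not tested.

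The count of all genes called was 1770, and it was 1010 with no filter on low counts, 3305 by DESeq2, 8 with GC offsets, 18 with GC and length offsets and 1 to 3149 with a sample left out. Member calls, 1 in the main test, were 0 with no filter, 3 by DESeq2, 0 with either offset and 0 to 3 with a sample left out. The other Prss genes, with 3 calls, had 0 with either offset and 0 to 5 with a sample left out. Acrosomal genes, with 6, had 0 with either offset and 0 to 7 with a sample left out. ADAM3 genes, with 2, had 0 with either offset and 0 to 4. Inhibitors, with 2, had 1 with library size alone, 1 with no filter, 0 with either offset and 0 to 2.

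With the replicate number as a block, 21 genes were called in all, with 0 members, 0 other Prss, 0 acrosomal, 0 ADAM3 and 0 inhibitor genes; with the block and both offsets, 5 genes were called and again 0 in each list. No pairing by number was seen: same-numbered samples deviated from their group means with correlations of -0.286, -0.0558 and -0.126 over genes. Those of differently numbered samples ran from -0.091 to 0.245. Such correlations cannot tell whether same-numbered samples were handled together.

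Each member level rests on at least 229 counts in a sample, and there were 3 samples per group. The part of counting error in the spread of the members was not tested.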
